A study of Homo sapiens with 36 samples.

Results

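HepG2 cells, an established human hepatoma line with many hepatocyte functions, were treated for 6 h with DHA together with propionate (DHA + PRO) and compared with untreated control cells (Ctrl) of the same time. The comparison takes 6 of the 36 RNA-seq samples of the study, namely 3 DHA + PRO and 3 Ctrl samples, chosen by their labels. DHA (docosahexaenoic acid, a long-chain omega-3 fatty acid) was given at 50 µM bound to bovine serum albumin (BSA), and PRO (propionate, a short-chain fatty acid) at 70 µM in water. Ctrl cells got matching BSA and vehicle, labelled DMSO/BSA, and all cells were kept in serum-free medium with 0.5% BSA during treatment. The other treatments at 6 h were DHA, PRO, protocatechuic acid (PCA, a phenolic acid, 20 µM) and DHA + PCA, again with 3 samples each, and the same 6 groups were repeated at 24 h. Each sample is the pooled RNA of several wells from 1 of 3 independent culture experiments. HepG2 is a single tumour-derived line, so the spread between samples is that between cultures and not between people.

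Cells regulate cholesterol through SREBP-2, a transcription factor held in the endoplasmic reticulum when sterols are plentiful and released to the nucleus when they are scarce. Nuclear SREBP-2 drives nearly all enzymes that turn acetyl-CoA into cholesterol, while its relative SREBP-1c drives fatty acid synthesis. Polyunsaturated fatty acids such as DHA are known to lower SREBP-1 activity in liver cells. The paper describes them as regulators of nuclear SREBP-1 but not of nuclear SREBP-2. Propionate is known as a product of gut bacteria, an inhibitor of histone deacetylases and a substrate for succinyl-CoA formation.

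The deposited values were raw read counts for 18932 genes. The samples held between 5890657 and 10788964 counts in Ctrl and between 4659744 and 8922287 in DHA + PRO. Library numbers in the labels fall into an earlier and a later series, and Ctrl replicate 3 and DHA + PRO replicates 2 and 3 are of the later one. DHA + PRO replicate 2 is the only replicate 2 at 6 h in that series. Replicate 1 of DHA + PRO stood apart from its group, with correlations of log2 CPM (counts scaled to library size) across genes of 0.966 and 0.964 to replicates 2 and 3, which correlated at 0.989 with each other. Its correlation with Ctrl replicate 1 was 0.986. Results are therefore also given without this sample. Defining markers matched the labelled line. The 17 hepatocyte markers together took 65938 to 73099 CPM in Ctrl and 68627 to 75756 CPM in DHA + PRO, and all 17 were above 1 CPM. Of 8 endothelial markers none reached 1 CPM in any sample. The 8 fibroblast markers summed to 11.9 to 15.6 CPM in Ctrl and 6.10 to 11.5 CPM in DHA + PRO. The 8 immune markers summed to 964 to 1241 CPM and 831 to 1261 CPM, nearly all of it lysozyme (LYZ).

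After 6 h, DHA + PRO lowered a small set of cholesterol genes and raised metallothioneins. Of 11872 genes tested, 13 passed an adjusted p of at most 0.05 with an average log2 CPM above 0, or 0.11% of all genes tested. Among the 9 lower genes (0.0758%) were HMGCS1, IDI1, SQLE, CYP51A1 and MSMO1 of cholesterol synthesis, the sterol carrier STARD4 and the clock repressor BHLHE40. The 4 higher genes (0.0337%) were the metallothioneins MT2A, MT1X and MT1E and the heat shock gene HSPA1L. At an unadjusted p under 0.05 there were 714 genes (6.01%), of which 300 were higher (2.53%) and 414 lower (3.49%). In 12 of the 13 genes the 3 treated and 3 control samples did not overlap, as was so in 4.89% of all genes tested. The fold changes and p-values came from edgeR's quasi-likelihood test on the 18 samples of 6 h, with the replicate number as a block. Without that block the count was 2, HMGCS1 and STARD4, with a biological coefficient of variation of 0.141 in place of 0.0969. Without Ctrl replicate 3 the count was 7, and HMGCS1, MSMO1, IDI1, SQLE and STARD4 kept their call whichever single sample was left out. Without DHA + PRO replicate 1 the count was 753 (231 higher, 522 lower) and held all 13 genes. Both remaining DHA + PRO samples are then of the later library series, while 2 of the 3 Ctrl samples are of the earlier one, so treatment and series cannot be fully told apart there.

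**Figure D1:**
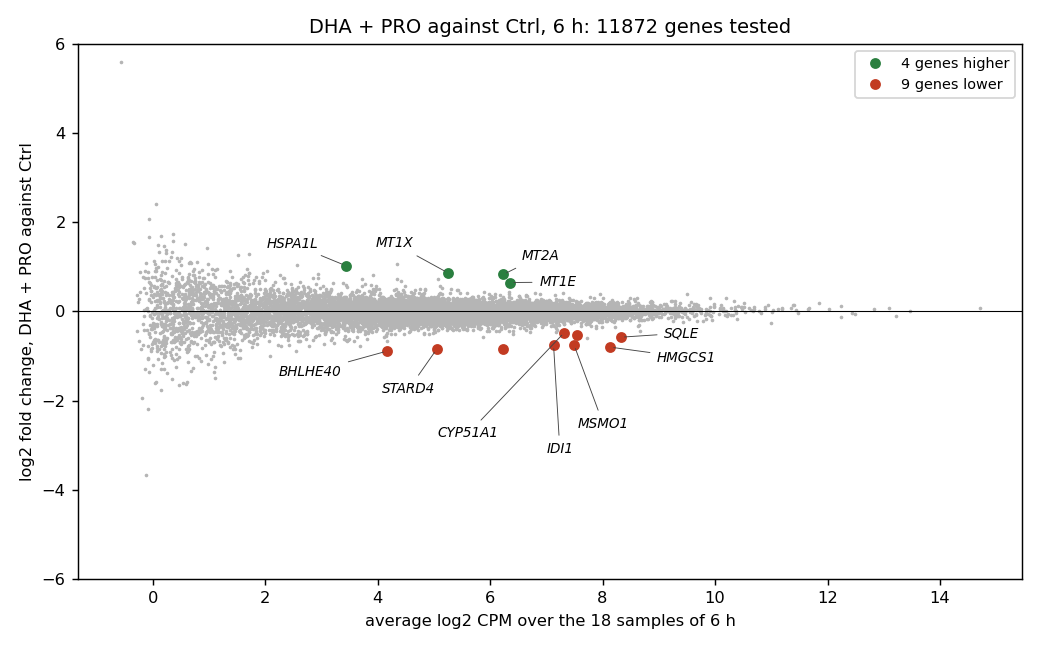
Log2 fold change of DHA + PRO against Ctrl at 6 h (y axis) by average log2 CPM (x axis) for the 11872 genes tested, each gene a point. The 9 lower genes lie between −0.48 and −0.89 and the 4 higher ones between 0.65 and 1.03. The widest scatter of fold changes lies among genes with the lowest expression, at the left.

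The first committed steps of cholesterol synthesis are the mevalonate pathway. HMGCS1, the cytosolic HMG-CoA synthase on chromosome 5 (hg19, 43287572 to 43313614), measured 374, 372 and 346 CPM in Ctrl replicates 1 to 3 and 231, 182 and 213 CPM in DHA + PRO. The groups did not overlap, and HMGCS1 fell by 0.80 on the log2 scale (SE 0.09, n = 3 per group, adjusted p = 4.32e-05 by edgeR), a level 42.6% lower. It was the gene with the smallest p of all those tested. IDI1, the isomerase that interconverts the isoprenoid building blocks (chromosome 10, 1085964 to 1095061), had 185, 181 and 162 CPM in Ctrl against 127, 88.1 and 99.3 CPM. It fell by 0.76 (SE 0.10, adjusted p = 0.000209), again without overlap.

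The later steps turn squalene into cholesterol. SQLE, squalene epoxidase, measured 407, 381 and 371 CPM in Ctrl and 301, 232 and 245 CPM in DHA + PRO. It fell by 0.58 (SE 0.07, adjusted p = 0.000209), with every treated sample below every control. CYP51A1, the lanosterol demethylase, measured 204, 169 and 188 CPM in Ctrl and 173, 111 and 123 CPM in DHA + PRO. It was the only one of the 13 whose groups overlapped, since DHA + PRO replicate 1 lay above Ctrl replicate 2, and it fell by 0.48 (SE 0.09, adjusted p = 0.0155). MSMO1, the sterol C4 methyl oxidase (chromosome 4, 166248818 to 166264314), had 249, 217 and 214 CPM against 170, 109 and 126 CPM. The samples did not overlap, and MSMO1 fell by 0.76 (SE 0.09, adjusted p = 0.000147). The call of CYP51A1 was lost without Ctrl replicate 2 or 3 and without DHA + PRO replicate 2 or 3. In all 3 replicate pairs of HMGCS1, IDI1, SQLE, CYP51A1 and MSMO1 the treated sample was the lower one. Replicate 2 gave the largest fall, narrowly so in CYP51A1. Its Ctrl sample is of the earlier library series and its DHA + PRO sample of the later one. Treatment and series cannot be told apart in that pair. For MSMO1 the log2 ratios were −0.55, −0.99 and −0.76 in replicates 1 to 3.

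Cells also move cholesterol between compartments. STARD4, a soluble carrier of cholesterol between membranes (chromosome 5, 110834022 to 110848157), was the steadiest of the 13, with 42.2, 40.2 and 42.6 CPM against 24.3, 21.9 and 22.7 CPM. It fell by 0.85 (SE 0.12, adjusted p = 0.000693), a level 44.7% lower. BHLHE40, a repressor of the circadian clock that lies outside the sterol genes (chromosome 3, 5021097 to 5026865), measured 22.9, 18.7 and 25.6 CPM in Ctrl and 10.7, 11.7 and 13.9 CPM in DHA + PRO. It had the largest fall of the 13, 0.89 on the log2 scale (SE 0.15, adjusted p = 0.00547), and its groups were separate, but the call was lost without Ctrl replicate 3.

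**Figure D2:**
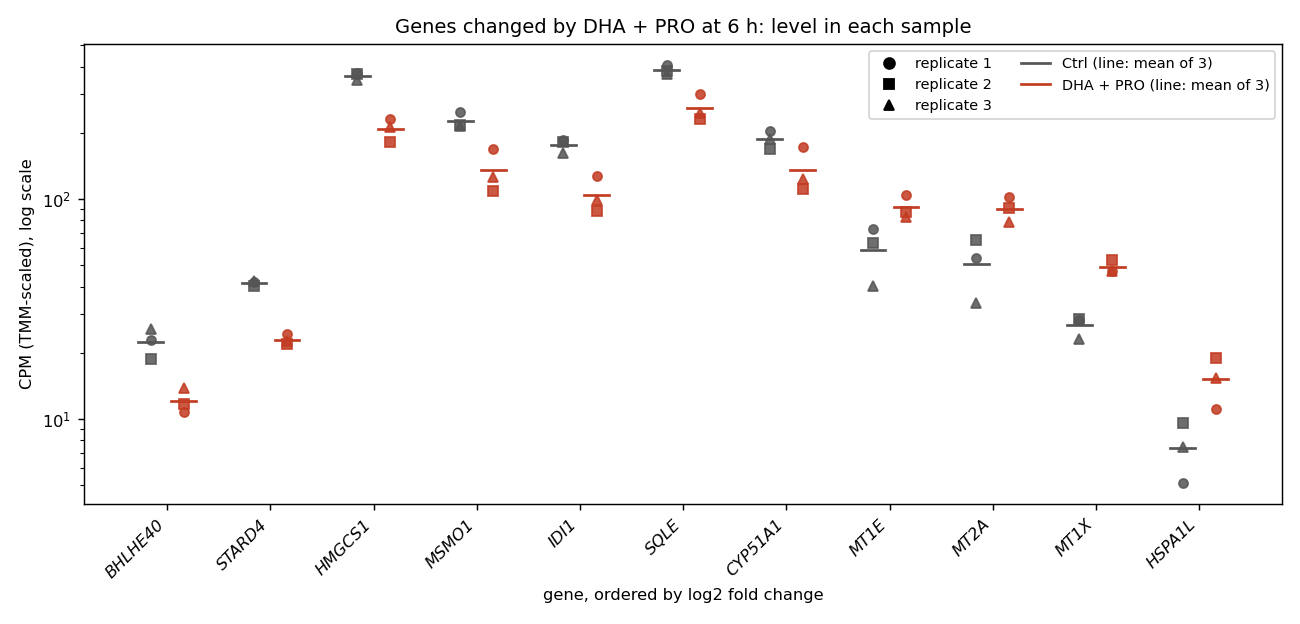
CPM (log axis) of 11 genes past the threshold in each Ctrl (grey) and DHA + PRO (red) sample of 6 h, with symbols for the replicate number and a line at the mean of 3. All genes shown but CYP51A1 have separate groups, and DHA + PRO replicate 1 is the highest treated sample of the 5 synthesis enzymes.

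The sequences just upstream of the start are shown for HMGCS1, MSMO1 and STARD4 because promoters of sterol genes carry SREBP sites beside CCAAT boxes (bound by NF-Y) and GC boxes (bound by Sp1). They are 190 bases each, read 5′ to 3′ on the gene's strand from RefSeq promoters of GRCh38.p14, a different build from the hg19 of the counts. Capitals mark CCAAT or GGGCGG on either strand. The places are chr5:43313413-43313602 (minus strand), chr4:165327479-165327668 (plus strand) and chr5:111512536-111512725 (minus strand).
HMGCS1: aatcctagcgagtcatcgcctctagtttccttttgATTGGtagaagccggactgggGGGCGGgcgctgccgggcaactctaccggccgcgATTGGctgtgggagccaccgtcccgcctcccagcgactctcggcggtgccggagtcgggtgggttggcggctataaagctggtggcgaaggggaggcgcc
MSMO1: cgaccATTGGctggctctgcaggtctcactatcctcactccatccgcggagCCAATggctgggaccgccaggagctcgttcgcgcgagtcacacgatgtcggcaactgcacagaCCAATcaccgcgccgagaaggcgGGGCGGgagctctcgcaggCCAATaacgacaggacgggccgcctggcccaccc
STARD4: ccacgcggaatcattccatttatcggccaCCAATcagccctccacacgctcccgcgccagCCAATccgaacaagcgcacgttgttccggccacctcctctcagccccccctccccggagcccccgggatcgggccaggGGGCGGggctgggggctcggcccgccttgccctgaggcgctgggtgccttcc

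RefSeq promoters (250 bases before to 50 after the start) were at hand for 9 of the 13 genes, with none for SQLE and MT1E. CCAAT on either strand was found in 4 of the 6 lower genes with a promoter (HMGCS1, MSMO1, IDI1 and STARD4), against 43.4% of 9169 tested genes and 39.7% of 27305 genes in all. GGGCGG was found in all 6, against 77.0% and 48.3%. TCACNCCAC, the letters of a classical sterol regulatory element, was found in 0 of the 9 genes, against 1.52% of tested genes and 1.39% of all. These matches describe letters only, and no binding was measured.

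The other genes of the pathway mostly had lower values but did not pass the test one by one. Of 8 mevalonate pathway enzymes 2 were called lower and 7 had an unadjusted p under 0.05 in that direction. Among all genes tested these shares were 0.0758% and 3.49%. The median log2 fold change of the 8 was −0.42, where all genes had −0.01. MVK, mevalonate kinase, was at −0.57 (SE 0.17, adjusted p = 0.464). PMVK, phosphomevalonate kinase, was the exception at 0.21 (SE 0.21). All 12 enzymes from squalene to cholesterol had negative values, 3 called and 8 at an unadjusted p under 0.05, with a median of −0.31. Not called were FDFT1, squalene synthase, at −0.32 (SE 0.07, adjusted p = 0.127) with separate groups, and SC5D, a sterol desaturase, at −0.47 (SE 0.11, adjusted p = 0.13) with overlapping ones. Of 11 genes of sterol uptake and traffic only STARD4 was called or had an unadjusted p under 0.05, and the median was −0.03. These lists were chosen with earlier results of these data known, so they are not independent evidence of direction.

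The regulators themselves did not pass the test in the main edgeR fit. SREBF1, the gene of SREBP-1, measured 85.2, 90.9 and 78.6 CPM in Ctrl and 54.0, 64.1 and 71.1 CPM in DHA + PRO. The groups were separate and the value was −0.45 (SE 0.12), but the adjusted p was 0.34. Without a filter on low counts edgeR called SREBF1 (adjusted p = 0.0426). SREBF2, the gene of SREBP-2, was at −0.09 (SE 0.09), and without DHA + PRO replicate 1 at 0.0081. None of the 6 tested genes of SREBP processing was called in the main fit, and INSIG1 had too few counts to be tested.

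Fatty acid synthesis, the other SREBP branch, was lower in a few members without any call in the main edgeR fit. DESeq2 called ACSS2 and SCD. With DHA + PRO replicate 2 in the block of the later library series, edgeR called ACSS2 too. Among 9 tested lipogenic genes 3 had an unadjusted p under 0.05, all lower (against 3.49% of all genes tested), and the median was −0.17. They were ACSS2 (acetyl-CoA synthetase) at −0.34 (SE 0.08, adjusted p = 0.18), ACACA (acetyl-CoA carboxylase) at −0.23 (SE 0.09, adjusted p = 0.766) and ACLY (ATP citrate lyase) at −0.19 (SE 0.07, adjusted p = 0.7). FASN, fatty acid synthase, was at −0.07 (SE 0.12) and its sign depended on the samples kept. SCD, stearoyl-CoA desaturase, was at −0.27 (SE 0.06, adjusted p = 0.18), and its log2 ratios of −0.25, −0.26 and −0.29 were nearly equal in the 3 replicate pairs. Its CPM overlapped between groups all the same, since replicates 1 were higher in both. Of 12 tested desaturases and elongases 3 were lower and 1 higher at an unadjusted p under 0.05 (against 3.49% and 2.53% of all genes tested). The higher one, ELOVL3, had no more than 1.36 CPM in any sample.

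**Figure D3:**
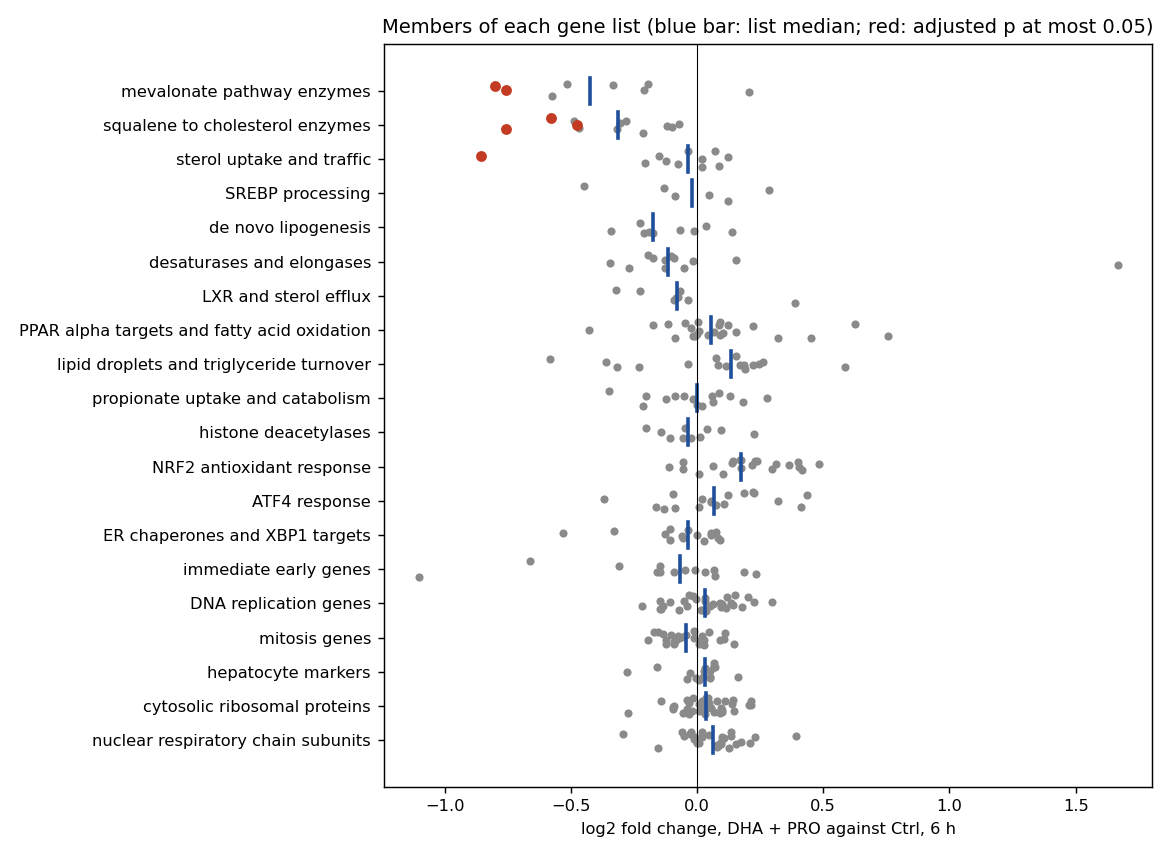
Log2 fold change of DHA + PRO against Ctrl at 6 h for each tested member of 20 gene lists, with the list median as a blue bar and called genes in red. The called members are all in 3 cholesterol lists, whose medians are −0.42, −0.31 and −0.03.

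The metallothioneins, small cysteine-rich proteins that bind zinc and copper, had 3 called members, all higher, against 1 in the HSP70 genes around HSPA1L and 0 in the aldo-keto reductases (AKR1). At an unadjusted p under 0.05, 5 of 6 tested metallothioneins, 3 of 3 of these HSP70 genes and 5 of 7 AKR1 genes were higher. Of all genes tested 2.53% were higher at that limit and 0.0337% were called higher. All 3 sets of genes were put together after their values were seen. MT2A measured 54.0, 65.1 and 33.6 CPM in Ctrl and 102, 91.1 and 79.0 CPM in DHA + PRO. The groups did not overlap, with MT2A 0.83 higher on the log2 scale (SE 0.15, adjusted p = 0.0143), or 1.78-fold. MT1X had 28.1, 28.6 and 23.2 CPM against 47.1, 53.1 and 46.9 CPM and was 0.87 higher (SE 0.15, adjusted p = 0.0143), also without overlap. MT1E had 73.5, 63.0 and 40.2 CPM against 105, 87.6 and 83.2 CPM and was 0.65 higher (SE 0.12, adjusted p = 0.0155). Ctrl replicate 3, of the later library series, was the lowest control of all 3 genes. Without Ctrl replicate 3 none of the 3 was called. MT2A also lost its call without Ctrl replicate 1, MT1X without replicate 2 of either group, and MT2A and MT1E without DHA + PRO replicate 3. MT1F at 0.69 (SE 0.16, adjusted p = 0.13) and MT1G at 0.72 (SE 0.17, adjusted p = 0.145) had separate groups but were not called, MT1A was at 0.39 (SE 0.49), and 5 further family genes had too few counts. The family lies in a cluster on chromosome 16 (MT2A from 56642478 to 56643409, MT1X from 56716382 to 56718108), and its near-identical copies can share reads, so the split between members is uncertain.

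Promoters of MT2A and MT1X are shown because metal-responsive elements, the sites of the zinc sensor MTF-1, are a defining feature of the family. Capitals mark TGCACNC or TGCGCNC on either strand, letters chosen after the values were seen, in the 190 bases before the start at chr16:56608394-56608583 and chr16:56682280-56682469 (both plus strand, GRCh38.p14, RefSeq).
MT2A: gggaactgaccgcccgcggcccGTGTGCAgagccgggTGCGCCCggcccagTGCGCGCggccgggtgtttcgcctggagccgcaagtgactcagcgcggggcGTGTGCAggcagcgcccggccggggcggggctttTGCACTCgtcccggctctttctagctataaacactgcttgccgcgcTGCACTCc
MT1X: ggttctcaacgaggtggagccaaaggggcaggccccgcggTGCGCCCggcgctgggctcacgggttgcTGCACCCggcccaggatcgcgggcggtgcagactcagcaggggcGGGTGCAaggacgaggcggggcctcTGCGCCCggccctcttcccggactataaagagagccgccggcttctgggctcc

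MT2A held 6 such matches in this stretch and MT1X 4. In the whole promoter they were found in 2 of the 3 higher genes and 1 of the 6 lower genes (IDI1), against 46.0% of tested genes, so that the letters alone are common.

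HSPA1L, a heat shock protein of the HSP70 family on chromosome 6 (31777396 to 31782835), was low in level and had the largest change of the 13. It measured 5.11, 9.61 and 7.45 CPM in Ctrl and 11.1, 19.02 and 15.4 CPM in DHA + PRO. The groups were separate and the difference was 1.03 on the log2 scale (SE 0.20, adjusted p = 0.0268), or 2.04-fold. The log2 ratios were 1.08, 0.97 and 1.03 within replicates 1 to 3. The call was lost without Ctrl replicate 1 or 3 and without DHA + PRO replicate 2. Its neighbours on the other strand, the inducible HSP70 genes HSPA1A and HSPA1B, were at 0.30 (SE 0.10) and 0.23 (SE 0.09) and were not called. HSPA1L, HSPA1A and HSPA1B each had an unadjusted p under 0.05, but only in HSPA1L were the groups separate.

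No list of stress genes held a gene called in the main edgeR fit. Of 21 NRF2 targets, the antioxidant and detoxification genes, 10 had an unadjusted p under 0.05, all higher, with a median of 0.17. At that limit 2.53% of all genes tested were higher and 3.49% lower. AKR1C2, an aldo-keto reductase, measured 893, 861 and 902 CPM in Ctrl and 1096, 1074 and 1126 CPM in DHA + PRO. The groups were separate with a tight spread, and the value was 0.31 (SE 0.07, adjusted p = 0.13). SQSTM1, the autophagy adaptor p62, was at 0.40 (SE 0.09, adjusted p = 0.114) and SRXN1, sulfiredoxin, at 0.40 (SE 0.09, adjusted p = 0.13). Among 18 ATF4 targets, genes of the amino acid response, 5 had an unadjusted p under 0.05 and all were higher, among them ASNS, asparagine synthetase, at 0.41 (SE 0.15). Of 15 endoplasmic reticulum chaperone genes 2 were lower by the same measure, DNAJC3 at −0.33 (SE 0.09) and DNAJB9 at −0.53 (SE 0.18). None of the 14 immediate early genes tested was.

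No gene of fatty acid use or propionate handling passed the test. For the counts that follow, 2.53% of all genes tested were higher and 3.49% lower at an unadjusted p under 0.05. Of 24 tested PPAR alpha and oxidation genes 1 had an unadjusted p under 0.05, CPT1A, the carnitine transferase that admits fatty acids to mitochondria, at 0.62 (SE 0.18, adjusted p = 0.41). Of 16 lipid droplet and triglyceride genes 2 were higher and 2 lower at that limit. PLIN2, a coat protein of lipid droplets, measured 157, 158 and 166 CPM in Ctrl and 186, 198 and 192 CPM in DHA + PRO, a difference of 0.26 (SE 0.08) with separate groups that did not pass (adjusted p = 0.569). PNPLA3, a lipase of droplets, was at −0.58 (SE 0.16, adjusted p = 0.404). In the sterol efflux list, APOE was at 0.39 (SE 0.16) and ABCA1 at −0.32 (SE 0.14), both uncalled. Of 15 tested genes of propionate uptake and catabolism 1 had an unadjusted p under 0.05, MMAB, which makes the cobalamin cofactor, at −0.35 (SE 0.13, adjusted p = 0.724). None of 10 tested histone deacetylases did, and their median was −0.04. DNA replication (31 genes) and mitosis (27 genes) each had 1 gene lower at that limit, with medians of 0.03 and −0.04. The hepatocyte markers had none of 17. Cytosolic ribosomal proteins had 1 of 40 higher, and respiratory chain subunits 2 higher and 1 lower of 30.

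Outside these lists, LPCAT1, an enzyme that remodels phosphatidylcholine, came nearest to the threshold. It measured 93.1, 94.4 and 94.2 CPM in Ctrl and 133, 124 and 118 CPM in DHA + PRO. The groups were far apart for their spread, and the value was 0.41 (SE 0.09, adjusted p = 0.064). CYCS, cytochrome c, was at −0.47 (SE 0.11, adjusted p = 0.127) with overlapping groups. PLCXD1 was at −0.33 (SE 0.08) and TTC32 at −0.78 (SE 0.19), both with separate groups and an adjusted p of 0.18.

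What propionate added to DHA was asked by setting DHA + PRO against DHA at 6 h, which uses no Ctrl sample. None of the 11872 genes was called by edgeR (448, or 3.77%, had an unadjusted p under 0.05), nor by DESeq2 (369 genes). Of the 13 genes only HSPA1L had an unadjusted p under 0.05, being 0.81 higher with DHA + PRO than with DHA (SE 0.20, adjusted p = 0.987). HMGCS1 differed by −0.01 (SE 0.09) and STARD4 by −0.25 (SE 0.12), neither past an unadjusted 0.05. In the interaction, which asks whether the combination departs from the sum of both single effects on the log2 scale, 0 genes were called by edgeR and by DESeq2 (530 genes, or 4.46%, and 455 genes at an unadjusted p under 0.05). MT1E was the only one of the 13 at that limit.

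What DHA added to propionate was asked against PRO. Here 10 genes passed (0.0842%), of which 9 were lower (0.0758%) and 1 higher (0.00842%). Among them were HMGCS1, MSMO1, IDI1, SQLE, STARD4 and BHLHE40. HMGCS1 differed from its level with PRO by −0.75 (SE 0.09). Not called against Ctrl, but called here, were SREBF1 at −0.76 (SE 0.12, adjusted p = 0.00386) and AKR1C2 at 0.39 (SE 0.07, adjusted p = 0.0212). For SREBF1 the PRO samples measured 114, 93.4 and 112 CPM, all above the 3 DHA + PRO samples. They also lay above the 3 Ctrl samples, although PRO alone gave no call. The SREBF1 means were 106 CPM in PRO, 84.9 in Ctrl, 63.0 in DHA + PRO and 62.0 in DHA. MT2A was 0.54 higher than with PRO (SE 0.15), which did not pass (adjusted p = 0.457). Without the replicate block only HMGCS1 was called, and with only the groups compared no gene was (127 at an unadjusted p under 0.05 with the block). The count was 5 without PRO replicate 2, 6 without DHA + PRO replicate 2 and 23 without DHA + PRO replicate 1. HMGCS1, MSMO1, SQLE and SREBF1 kept their call whichever single sample was left out, while AKR1C2 kept it only without DHA + PRO replicate 1.

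The single treatments against Ctrl share the Ctrl samples with DHA + PRO, so their values are only set side by side. For HMGCS1 the log2 fold change was −0.80 with DHA + PRO, −0.79 with DHA, −0.93 with DHA + PCA and −0.05 with PRO. BHLHE40 was at −0.89, −0.79, −0.68 and −0.01 in that order. In the metallothionein MT1E the values were 0.65, 0.79, 0.68 and 0.32. HSPA1L had another order, with 1.03, 0.22, 0.66 and 0.62, and its CPM was 6.32, 9.07 and 11.0 with DHA and 8.57, 12.0 and 14.1 with PRO. The DHA samples of HSPA1L overlapped Ctrl, while the lowest DHA + PRO sample lay only just above the highest DHA sample. PRO alone gave 0 calls (563 genes, or 4.74%, at an unadjusted p under 0.05, and the lowest adjusted p was 0.873).

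**Figure D4:**
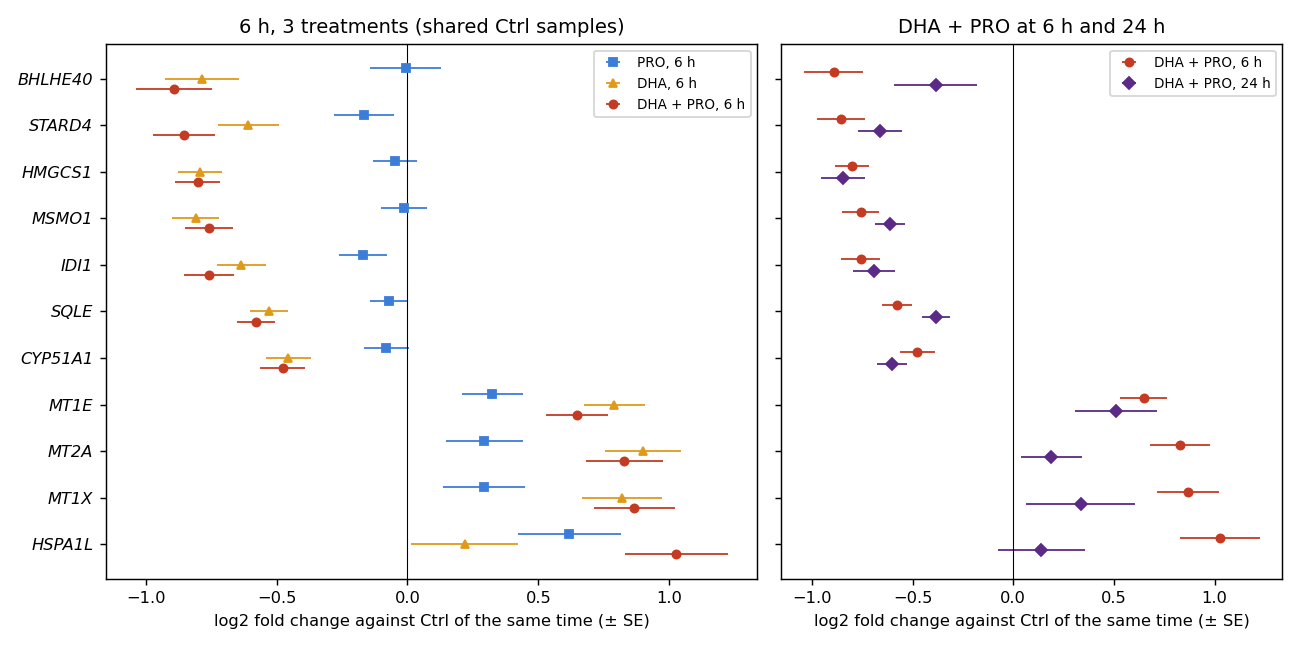
Log2 fold change against Ctrl with its SE for 11 of the 13 genes, at 6 h with PRO, DHA and DHA + PRO (left) and for DHA + PRO at 6 h and 24 h (right). The 7 lower genes shown lie between −0.17 (IDI1) and −0.01 (BHLHE40) with PRO and well below 0 with DHA and DHA + PRO. HSPA1L is at 0.22 with DHA and 1.03 with DHA + PRO.

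At 24 h, in other samples, DHA + PRO changed 135 of 11893 genes (1.14%), and 8 of the 13 genes of 6 h were among them. They included HMGCS1, IDI1, SQLE, CYP51A1, MSMO1 and STARD4. DHA + PRO replicate 2 of 24 h held 42326734 counts, against 6016414 and 7059542 in replicates 1 and 3. HMGCS1 measured 871, 905 and 837 CPM in Ctrl and 436, 474 and 540 CPM in DHA + PRO at 24 h, above its levels at 6 h in both groups, with a log2 fold change of −0.85 (SE 0.11). BHLHE40 was at −0.39 (SE 0.21), MT2A at 0.19 (SE 0.15), MT1X at 0.33 (SE 0.27), MT1E at 0.51 (SE 0.20) and HSPA1L at 0.14 (SE 0.21), none called at 24 h. The difference between times was tested in a joint model, and none of the 13 passed it. MT2A (−0.65, SE 0.22, adjusted p = 0.675) and HSPA1L (−0.90, SE 0.30, adjusted p = 0.67) had an unadjusted p under 0.05, as did 5.72% of all genes. HMGCS1 and CYP51A1 had the larger change at 24 h.

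**Figure D5:**
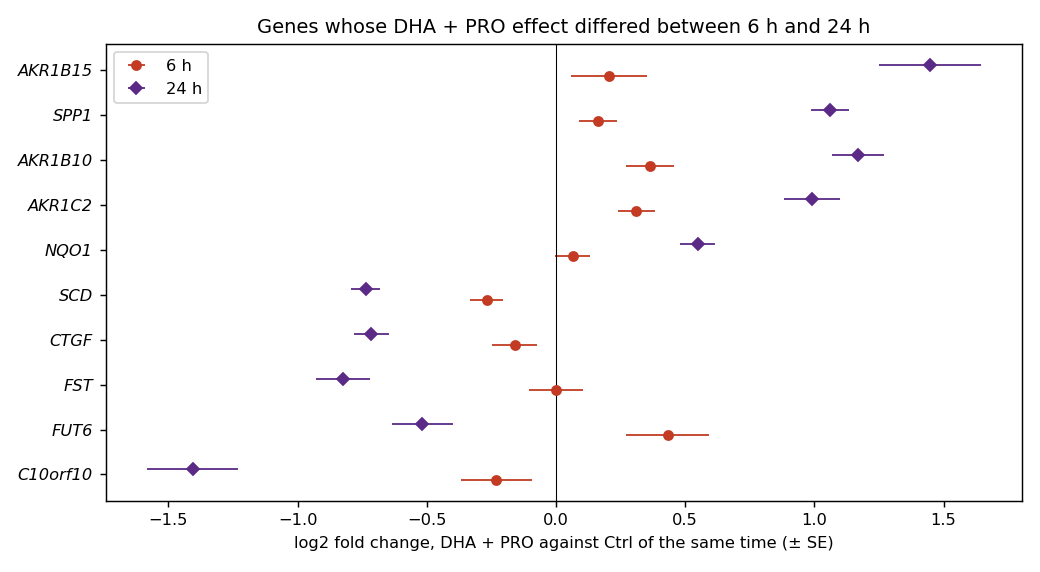
Log2 fold change of DHA + PRO against Ctrl at 6 h and 24 h, with SE, for the 10 genes whose effect differed between the times. SPP1, AKR1B10, AKR1B15, AKR1C2 and NQO1 were further up at 24 h, and SCD, CTGF, FST and C10orf10 further down, while FUT6 lay at 0.43 at 6 h and −0.52 at 24 h.

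In that joint model 10 of 12046 genes differed between the times (0.083%), 5 in each direction (0.0415% each). SPP1, the secreted protein osteopontin, measured 340, 187 and 245 CPM in Ctrl and 415, 216 and 243 CPM in DHA + PRO at 6 h, which overlapped. At 24 h it measured 199, 220 and 223 CPM against 421, 432 and 486 CPM, which did not. SCD went from −0.27 (SE 0.06) at 6 h to −0.74 (SE 0.06) at 24 h, and was called at 24 h only. NQO1, the quinone reductase, went from 0.06 (SE 0.07) to 0.55 (SE 0.07). Without the replicate block, or with a block shared by both times, no gene differed between the times by edgeR (310 and 534 at an unadjusted p under 0.05), and with only the 4 groups compared SPP1 alone did. Leaving out 1 sample gave 2 genes (without replicate 1 of Ctrl or of DHA + PRO at 24 h) to 39 (without DHA + PRO replicate 1 at 6 h), and SPP1 and SCD were called each time. The count was 3 or 4 without Ctrl replicate 3 or 1 at 6 h, 5 without DHA + PRO replicate 2 at 24 h, and 6 without DHA + PRO replicate 2 at 6 h or Ctrl replicate 3 at 24 h.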

How the data were processed

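HepG2 RNA was pooled over wells within each of 3 independent experiments, and TruSeq libraries were aligned by the authors to hg19 with STAR and counted per RefSeq gene (iRNA-seq pipeline). These deposited raw counts carry no normalization. The deposited table also gives position and counted length of each gene (another unit, used for positions only, with 1 added to starts counted from 0). The members and gene lists were chosen with earlier results of these data known.

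Differential expression used edgeR 4.0.16 in R 4.3.3, with filterByExpr, TMM scaling and a quasi-likelihood F test fitted to the 18 samples of 6 h with group and replicate number as terms, or to all 36 samples for the difference between times. Benjamini-Hochberg adjustment ran over every tested gene. Called genes had an adjusted p no higher than 0.05 and, on average, a log2 CPM above 0. The SE is the log2 fold change divided by the square root of F. CPM values use TMM-scaled library sizes. Scripts were tested on simulated data.

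The sources do not state that replicate numbers pair the samples, although the column headers give equal culture numbers to equal replicates. Deviations from group means correlated at 0.46, 0.22 and 0.09 between Ctrl and DHA + PRO of the same number. Only 1 of 3 Ctrl samples was closest to the DHA + PRO sample of its own number. Ctrl replicate 2 was closer to DHA + PRO replicate 3 (0.26), and Ctrl replicate 3 to DHA + PRO replicate 2 (0.22). These 6 samples thus gave little sign of pairing beyond replicate 1. Over all 18 samples of 6 h the mean between treatments was 0.26 for equal and −0.13 for different numbers. The block was used because the comparison was defined with it, and the unblocked count is given beside. No pair of the 6 samples was a duplicate (lowest chi-square per degree of freedom 2.21). Single genes compared by an exact permutation test of 3 against 3 cannot go below p = 0.1. Counts are reads, not molecules, and their precision is that of counting error and the 3 cultures. Alternatives were DESeq2 1.42.0, 2 other scalings, no filter, 2 other expression limits, fits of the compared groups only, blocks by library series, and leaving out samples.

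Genes were named by rule: all called genes, filled to 25 by unadjusted p, those the paper names, the 3 smallest p of each list, and the called genes of the other comparisons (at most 10). PMVK, HSPA1A, HSPA1B and MT1A lie outside it and were chosen after their values were seen. Some genes are not reported here and were left out of the lists and of the plots of single genes.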

Additional observations from a re-analysis of the deposited data

Results flagged for a closer look

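For 10 genes the effect of DHA + PRO differed between 24 h and 6 h in the joint edgeR model (adjusted p by Benjamini-Hochberg over 12046 genes). The difference is the log2 fold change at 24 h minus that at 6 h. It was 0.88 for SPP1 (SE 0.10, adjusted p = 5.83e-06), 1.23 for AKR1B15 (SE 0.23, adjusted p = 0.0161) and 0.79 for AKR1B10 (SE 0.14, adjusted p = 0.00772). AKR1C2 differed by 0.67 (SE 0.14) and NQO1 by 0.47 (SE 0.10), both at an adjusted p of 0.0291. In the other direction the differences were −0.48 for SCD (SE 0.08, adjusted p = 0.0057), −0.84 for FST, the activin antagonist follistatin (SE 0.15, adjusted p = 0.00772), and −0.57 for CTGF (SE 0.11, adjusted p = 0.0139). They were −0.96 for FUT6, a fucosyltransferase (SE 0.19), and −1.19 for C10orf10 (SE 0.24), both at an adjusted p of 0.0291. In Ctrl, AKR1C2 measured 893, 861 and 902 CPM at 6 h and 146, 167 and 180 CPM at 24 h. None of the 10 calls held without the replicate block or with a block shared by both times (310 and 534 genes at an unadjusted p under 0.05), and SPP1 and SCD held whichever single sample was left out. AKR1B15 and AKR1B10 are close paralogs that may share reads.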

How the results depend on the processing

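The 13 genes changed by DHA + PRO against Ctrl kept their direction under every alternative run. Leaving out the replicate block, a pairing that the sources do not state, gave 2 genes. With only the 2 groups compared there were 16 genes with the replicate block and 0 without it (134 at an unadjusted p under 0.05). DESeq2 gave 26 and no filter on low counts 36. The DESeq2 calls held all 13 genes. They added, among others, ACSS2, SCD, FDFT1, SC5D, MT1F, MT1G, LPCAT1, SQSTM1, SRXN1, AKR1C2, CYCS and PLCXD1, uncalled in the main edgeR fit. Without the filter edgeR also called SC5D, MT1F, MT1G, LPCAT1, SQSTM1, SRXN1, AKR1C2 and CYCS. Leaving out 1 sample gave from 7 (without Ctrl replicate 3) to 753 (without DHA + PRO replicate 1). Leaving out replicate 1, 2 or 3 of every group, an alternative chosen after seeing the data, gave 358, 4 and 1. The library series as block gave 10, without CYP51A1, MT1X and HSPA1L. With DHA + PRO replicate 2 in the block of the later series edgeR gave 14, with ACSS2 and FDFT1 but without HSPA1L. The cause of these shifts was not tested.

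Against PRO the 10 genes became 1 without the replicate block, 19 by DESeq2, 24 without a filter, 0 with only the groups compared (with and without the block), and 0 to 24 when samples were left out. Against DHA the count was 0 under every alternative run. The interaction gave 1 gene without a filter (SLC2A4RG) and 0 under the others. The 10 genes that differed between times became 0 without the replicate block, 0 with a block shared by both times, 18 without a filter, 1 with only the 4 groups, and 2 to 39 when 1 sample was left out, 39 without DHA + PRO replicate 1 of 6 h.

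Genes near 0 changed sign. FST went from −0.0013 to 0.0044 (DESeq2 size factors), 0.011 (upper quartile), 0.0043 (DESeq2), 0.00084 (no filter), 0.016 and 0.013 (only the groups, with and without block) and 0.0079 (library series). CD14 was at 0.0043 without the block, 0.013 by DESeq2, and 0.011 and 0.022 with only the groups. COL1A1 was at 0.16 by DESeq2, 0.41 with the library series and 0.32 with DHA + PRO replicate 2 in the later block, and MCM2 at −0.0086 with the library series. When samples were left out, ranges were −0.047 to 0.038 for FST, −0.25 to 0.48 for CD14, −0.72 to 0.60 for COL1A1, −0.17 to 0.085 for FASN, −0.18 to 0.052 for SREBF2, −0.0028 to 0.43 for SLC16A3, −0.28 to 0.0044 for HDAC6, −0.076 to 0.49 for HDAC10 and −0.43 to 0.038 for FOXA2. At 3 samples a group and 4659744 to 10788964 counts a sample at 6 h, a missed threshold does not show that a gene did not change.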
